A study of Mus musculus with 4 samples.

Results

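The 10 genes described here encode transcription regulators that act at the pachytene stage of meiosis or in the spermatids that follow it: Mybl1, Tcfl5, Zfp541, Brdt, Taf7l, Rfx2, Rfx3, Sox30, Crem and Spz1. They were chosen by name for their known roles, with earlier results of these data known, and all 10 were found among the 23980 genes of the expression table. Their RNA was measured by strand-specific polyA(+) RNA-seq in leptotene/zygotene (L/Z) spermatocytes, which are germ cells in early meiotic prophase, purified by fluorescence-activated cell sorting from mice 3 to 4 weeks old. All 4 libraries came from F1 hybrids of C57BL/6J and MSM/Ms. The Pld6 KO group held 1 library and the Dnmt3L KO group 1 library, and the control group held 2 libraries: a Dnmt3L heterozygote, which still carries a mutant allele, and a Pld6 WT. Pld6 is required for the production of piRNAs, and Dnmt3L (gene symbol Dnmt3l) is a cofactor of de novo DNA methylation. The mutant lines had been backcrossed to C57BL/6J, heterozygotes had then been crossed with MSM/Ms for several generations, and these were crossed with heterozygotes of the C57BL/6J background. How many mice gave each library is not given in the sources used here.

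In the testis, spermatocytes that complete synapsis enter pachytene and switch on a large set of genes for later meiosis and sperm formation. Mybl1 (A-MYB) is a master activator of this switch and works together with Tcfl5. RFX factors bind X-box motifs in promoters of ciliary genes, Sox30 and Crem act mainly on genes of round spermatids, and Brdt reads acetylated histones.

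The libraries held between 30439943 and 63875934 estimated fragments in genes, more than the number of reads the study's methods give for such libraries, for a reason not given in the sources used here. Pld6 was at 0.334 FPKM in Pld6 KO against 8.55 to 19.5 in the other libraries. Dnmt3l had 0 fragments in Dnmt3L KO and 20 to 101 fragments elsewhere. Markers of other cell types differed between the libraries. Summed over 10 Sertoli cell markers, the level was 4388 FPKM in the Dnmt3L heterozygote and 5819 in Dnmt3L KO, but 129 in Pld6 WT and 343 in Pld6 KO. The median FPKM of 14 L/Z markers was 56.7, 55.3, 166 and 107 in the same order. None of these Sertoli markers was at 0 in any library. Markers of Leydig cells (6 genes) summed to 326, 316, 24.9 and 219.7 FPKM in that order, those of macrophages (5 genes) to 36.1, 77.9, 12.9 and 34.8, and those of peritubular and vascular cells (6 genes) to 462, 275.5, 104 and 476. Among 8 spermatogonia markers, 2 were more than 2-fold higher than both controls in Pld6 KO, and in Dnmt3L KO 1 was higher and 1 lower. The Dnmt3L heterozygote also carried the most RNA of spermatid genes (median of 12 markers 21.4 FPKM, against 7.97 in Pld6 WT). The paper reports that wild-type testes held germ cells from spermatogonia to spermatids. In testes of either mutant it found only spermatogonia and spermatocytes up to zygotene, since cells die late in zygotene. It does not describe those testes as coming from hybrids such as the mice here. Whether later cells entered the sorted control populations was not tested. Levels below are given in FPKM, fragments scaled to transcript length and to library depth, so they can be compared between genes. Changes are log2 ratios of FPKM + 1 in the mutant to FPKM + 1 of the mean of the controls. With 1 library per mutant no spread within a mutant was measured, and in sorted populations fewer cells of a type and less RNA per cell cannot be told apart.

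Of the members, the same 7 lay below both controls in either mutant: Tcfl5, Zfp541, Brdt, Rfx2, Sox30, Crem and Spz1. Over the 14416 genes with a mean FPKM of at least 1, 32.4% lay below both controls in Pld6 KO and 34% in Dnmt3L KO. More than 2-fold lower than both controls were 3 of 10 members in Pld6 KO (Rfx2, Crem and Spz1), beside 8.57% of all genes. In Dnmt3L KO there were 5 of 10 (the same 3 with Tcfl5 and Sox30), beside 9.16%. No member was more than 2-fold higher than both controls, a position taken by 1.51% (Pld6 KO) and 3.29% (Dnmt3L KO) of all genes. The 10 members had a median change of -0.88 (Pld6 KO) and -1.28 (Dnmt3L KO), where the medians of all genes were -0.05 and -0.02. Both comparisons use the same controls, so their likeness is not independent. When every library was rescaled to its own 14 L/Z markers, Spz1 was the single member left more than 2-fold below both controls, in each mutant, beside 6.06% (Pld6 KO) and 4.88% (Dnmt3L KO) of all genes.

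**Figure D1:**
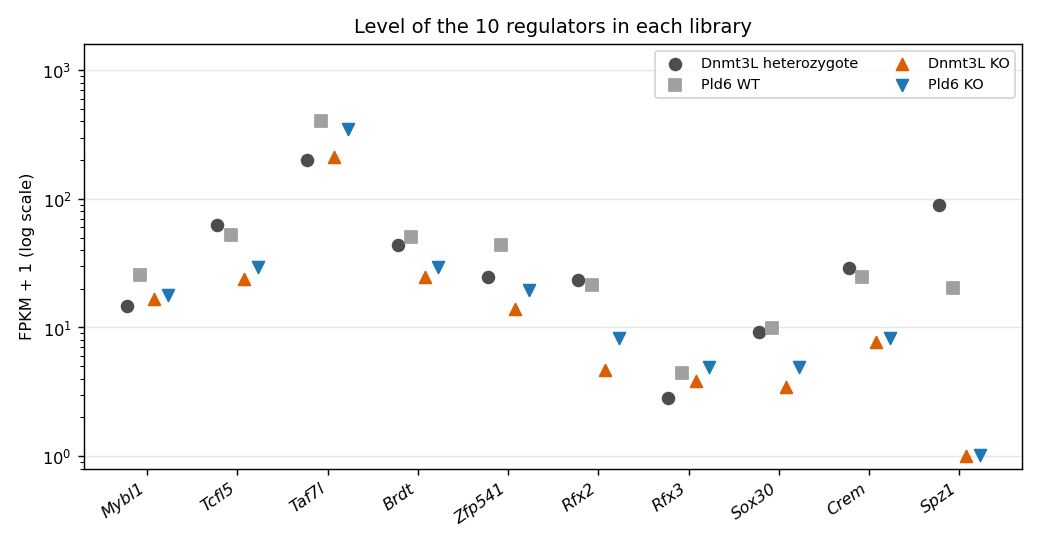
Level of each member in the 4 libraries, as FPKM + 1 on a log axis, with a separate symbol for each library and no error bars since each symbol is 1 library. Spz1 lies at the floor of the axis in both mutants, Rfx2 and Crem lie below both controls, and Taf7l stays near the top of the range with values from 200.4 to 399 FPKM.

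Among the regulators of pachytene entry, Mybl1 stayed within the range of the controls in FPKM as deposited. The gene (chromosome 1, 9667407 to 9700439 in mm10, as for all positions given) was at 13.7 FPKM in the Dnmt3L heterozygote and 24.7 in Pld6 WT, against 16.9 in Pld6 KO and at 15.7 in Dnmt3L KO. Both mutants were between the controls, and the controls themselves were farther apart than either mutant from their mean (changes of -0.18 and -0.27). Its adjusted p in edgeR was 0.975 in Dnmt3L KO and no lower in Pld6 KO.

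Tcfl5, a basic helix-loop-helix factor of spermatocytes, was lower in both mutants. It lies on chromosome 2 at 180621956 to 180642691. Its level was 61.5 FPKM in the Dnmt3L heterozygote and 51.8 in Pld6 WT, and 28.7 in Pld6 KO and at 23.0 in Dnmt3L KO. Both mutants lay below both controls, as did 32.4% (Pld6 KO) and 34% (Dnmt3L KO) of all genes. Pld6 KO was 1.81-fold and Dnmt3L KO 2.25-fold below the lower control, and the changes were -0.96 and -1.26. Scaled to the L/Z markers, Dnmt3L KO lay between the controls, at 39.7 against 28.8 in Pld6 WT and 68.7 in the heterozygote. The edgeR test with Benjamini-Hochberg adjustment gave adjusted p = 0.914 and 0.699.

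Zfp541 (chromosome 7, 16061775 to 16096340), a zinc finger protein that works in a histone deacetylase complex with Kctd19, was at 23.7 FPKM in the Dnmt3L heterozygote, 42.8 in Pld6 WT, 18.7 in Pld6 KO and at 12.9 in Dnmt3L KO. The mutants lay below both controls, but the lower control was only 1.27-fold and 1.83-fold above them. Its partner Kctd19 was at 35.6, 29.3, 9.52 and 4.32 FPKM in the same order, that is 3.08-fold and 6.79-fold below the lower control. The other parts of that complex in the list, Dnttip1, Hdac1 and Hdac2, had log2 changes no lower than -0.56 in either mutant.

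Members of the RFX family differed from each other. Rfx2 (chromosome 17, 56775897 to 56831008), which drives ciliary genes for the sperm tail, was at 22.4 FPKM in the Dnmt3L heterozygote and 20.5 in Pld6 WT, 7.23 in Pld6 KO and at 3.67 in Dnmt3L KO. The controls were close to each other and both mutants were well below them, 2.84-fold and 5.60-fold against the lower control. The adjusted p was 0.657 and 0.293 in edgeR (unadjusted 0.0576 and 0.0131), and 0.437 and 0.0243 in DESeq2. Rfx3 (chromosome 19, 27761721 to 28014669), which is used by ciliated cells of many tissues, had the lowest level of the members in both controls, at 1.80, 3.43, 3.92 and 2.82 FPKM in the same order. Pld6 KO was above both controls for Rfx3, as for 31% of all genes, and Dnmt3L KO lay between them. The share of all genes above both controls in Dnmt3L KO was 35.5%, and no member was among them.

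Of the other 6 RFX genes, Rfx4 and Rfx8 were also low in the mutants. Rfx4 was at 3.20 and 3.00 FPKM in the Dnmt3L heterozygote and Pld6 WT and had 0 fragments in either mutant, against 640 and 395 in the controls. Against the lower control this is at least 103-fold lower in Pld6 KO and at least 153-fold lower in Dnmt3L KO, taking a floor of 3 fragments per library. Rfx8 was at 12.8, 9.22, 1.35 and 2.59 FPKM (heterozygote, WT, Pld6 KO, Dnmt3L KO). Rfx1, Rfx5 and Rfx7 stayed within 2-fold of the controls, with changes from -0.09 to 0.46, and Rfx6 was below 0.1 FPKM in every library.

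**Figure D2:**
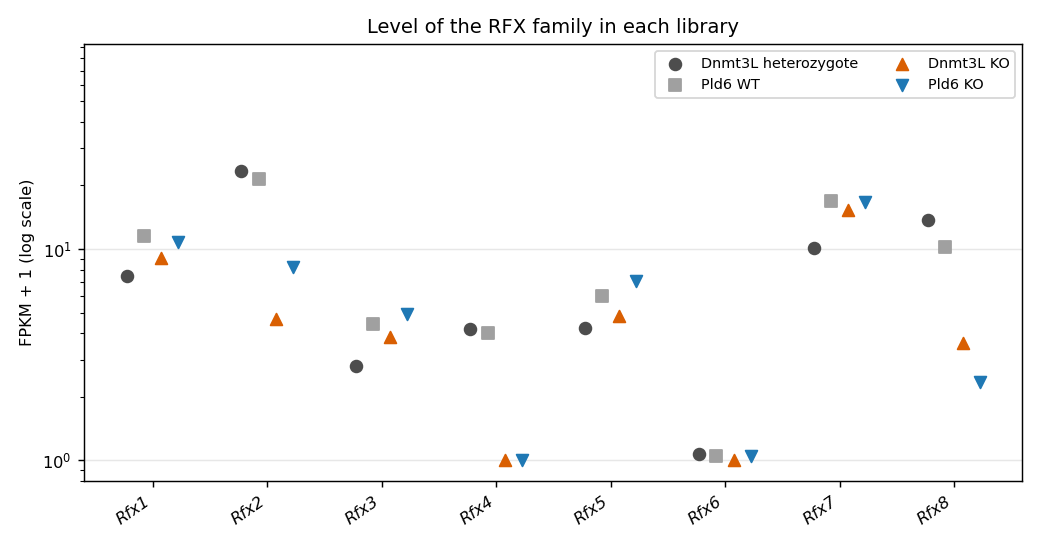
Level of the 8 RFX family genes in each library, as FPKM + 1 on a log axis, with 1 symbol per library. Rfx2, Rfx4 and Rfx8 are lower in both mutants than in both controls, while Rfx1, Rfx3, Rfx5 and Rfx7 are not, and Rfx6 is near 0 FPKM in all 4 libraries.

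The promoter windows of Tcfl5, Rfx2 and Spz1, which were low in both mutants, and of Rfx3, which was not, are shown here because Mybl1 and RFX factors bind known letters that can be looked for in them. RefSeq windows (GRCm38.p6, 250 bases before to 50 after the start of a transcript) were at hand for 8 members. Mybl1 and Crem had no window, so their promoters were not searched. For Tcfl5, Rfx2 and Spz1 that start is the outer end of the gene, while the windows of Rfx3, Sox30 and Zfp541 belong to starts 3503, 1241 and 10070 bases inside it. The letters were searched on both strands. For MYB they were TAACGG with its variant CAACGG, and the related form TAACTG with its variant CAACTG. For RFX they were GTTGCC and the alternative GTTACC, and for the cyclic AMP response element the letters TGACGT. Capitals mark the matches, and neighbouring matches can overlap. All windows printed are on the minus strand and are written in the direction of transcription: Tcfl5 at chr2:180642642-180642941, Rfx2 at chr17:56830959-56831258, Rfx3 at chr19:28011117-28011416 and Spz1 at chr13:92576183-92576482.
Tcfl5: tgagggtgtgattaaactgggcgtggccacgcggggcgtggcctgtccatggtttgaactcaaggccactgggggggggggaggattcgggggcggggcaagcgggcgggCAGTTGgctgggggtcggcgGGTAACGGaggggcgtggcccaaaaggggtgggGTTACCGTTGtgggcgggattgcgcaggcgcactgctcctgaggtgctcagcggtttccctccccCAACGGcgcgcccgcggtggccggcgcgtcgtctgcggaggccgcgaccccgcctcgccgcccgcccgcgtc
Rfx2: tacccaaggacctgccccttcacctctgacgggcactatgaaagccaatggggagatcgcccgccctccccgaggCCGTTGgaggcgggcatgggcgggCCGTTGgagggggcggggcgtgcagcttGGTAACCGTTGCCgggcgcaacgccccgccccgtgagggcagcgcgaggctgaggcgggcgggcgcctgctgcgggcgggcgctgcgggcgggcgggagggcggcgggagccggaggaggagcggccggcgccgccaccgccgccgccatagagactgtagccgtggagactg
Rfx3: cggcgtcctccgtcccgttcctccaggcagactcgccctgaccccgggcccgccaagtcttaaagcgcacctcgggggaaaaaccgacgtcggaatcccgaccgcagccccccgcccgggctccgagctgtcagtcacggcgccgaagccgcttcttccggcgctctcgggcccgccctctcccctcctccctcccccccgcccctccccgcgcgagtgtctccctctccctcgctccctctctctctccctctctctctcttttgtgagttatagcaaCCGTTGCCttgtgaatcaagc
Spz1: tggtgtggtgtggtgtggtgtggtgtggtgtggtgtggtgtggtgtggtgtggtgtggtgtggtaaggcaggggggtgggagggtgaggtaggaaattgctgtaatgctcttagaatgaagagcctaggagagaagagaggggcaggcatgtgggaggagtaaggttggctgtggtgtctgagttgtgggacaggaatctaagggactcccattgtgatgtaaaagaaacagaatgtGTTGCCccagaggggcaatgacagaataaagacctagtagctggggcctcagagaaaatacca

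Tcfl5 held 4 MYB and 2 RFX matches and Rfx2 held 3 MYB and 2 RFX matches, some of which share bases. At least 3 MYB matches were present in 0.743% of all 32851 windows, and both kinds of letters in 7.24%. The cut of 3 equals the count in Rfx2 itself, so the share describes these windows and tests nothing. Rfx3, whose level did not follow that of Rfx2, held 1 match of each kind, both after the start used. Spz1, the member with the largest change, held 1 RFX match and no MYB match. MYB letters were present in 5 of 8 members and in 28.3% of all windows, RFX letters in 4 of 8 and 18.6%, and the cyclic AMP response element in 0 of 8 and 7.51%. Taf7l and Zfp541 held 1 MYB match each, and Sox30 and Brdt held none of these letters. These matches are letters in a window and show no binding.

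Brdt (chromosome 5, 107331116 to 107387061), a bromodomain protein that reads acetylated histones and is needed for the pachytene program and for later chromatin compaction, was at 43.0 FPKM in the Dnmt3L heterozygote, 49.1 in Pld6 WT, 28.7 in Pld6 KO and at 23.6 in Dnmt3L KO. The mutants were 1.496-fold and 1.82-fold below the lower control, and the adjusted p in edgeR was 0.915 in Dnmt3L KO and no lower in Pld6 KO. For Brdt the transcript length implied by the values (fragments per FPKM, corrected for library depth) was not constant: relative to Pld6 WT it was 110% in the heterozygote, 121% in Pld6 KO and 129% in Dnmt3L KO. Such a spread over 10% was present in 2.85% of genes. With FPKM the changes of Brdt were -0.66 (Pld6 KO) and -0.94 (Dnmt3L KO). On fragments over DESeq2 size factors, which use no transcript length, they were smaller, at -0.47 and -0.66. The part of the implied length in the lower FPKM of Brdt was not tested further. The widely expressed relatives Brd2 and Brd3 had log2 changes between 0.07 and 0.48 in both mutants.

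Taf7l, a germ cell paralog of the TFIID subunit Taf7 that lies on chromosome X at 134460116 to 134476505, was the most abundant member in every library. It was at 200.4 FPKM in the Dnmt3L heterozygote, 399 in Pld6 WT, 350.04 in Pld6 KO and at 208.9 in Dnmt3L KO. With FPKM as deposited each mutant lay between the controls and close to the control of its own line. Scaled to the L/Z markers, both mutants were above both controls, with 224 in the Dnmt3L heterozygote, 221.6 in Pld6 WT, 327 in Pld6 KO and 361 in Dnmt3L KO. On that scale its changes were 0.55 (Pld6 KO) and 0.69 (Dnmt3L KO), where the medians of all genes were 0.09 and 0.96. In Dnmt3L KO Taf7l thus lay below the median gene. Taf7 itself was at 40.8, 50.9, 37.2 and 47.1 FPKM.

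The germ cell versions of the general transcription machinery differed among themselves. Gtf2a1l (ALF), a TFIIA subunit of germ cells, was at 37.3 and 21.1 FPKM in the heterozygote and Pld6 WT and at 0.312 and 0.134 in Pld6 KO and Dnmt3L KO. Tbpl1 (TRF2) was at 49.1, 43.5, 21.5 and 21.5 FPKM, a change of -1.07 in both mutants that stayed within 2-fold of the lower control on the FPKM + 1 scale. Taf4b and Tbp had log2 changes from -0.67 to 0.07.

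Sox30 (chromosome 11, 45979069 to 46017992), a factor of round spermatids, was at 8.25 FPKM in the Dnmt3L heterozygote and 8.83 in Pld6 WT, 3.94 in Pld6 KO and at 2.46 in Dnmt3L KO. The controls nearly coincided and both mutants were lower. On the FPKM + 1 scale the changes were -0.95 and -1.46. The direct ratio to the lower control was 2.09-fold in Pld6 KO and 3.35-fold in Dnmt3L KO, so in Pld6 KO the call more than 2-fold lower depended on the pseudocount. The adjusted p was 0.936 and 0.627 in edgeR.

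Crem, a cyclic AMP responsive factor whose activator form switches on protamine and transition protein genes in round spermatids, lies on chromosome 18 at 3266354 to 3337773 (mm10). It was at 28.0 FPKM in the Dnmt3L heterozygote, 23.7 in Pld6 WT, 7.21 in Pld6 KO and at 6.71 in Dnmt3L KO. The mutants were close to each other and lay 3.28-fold and 3.53-fold below the lower control. The unadjusted p in edgeR was 0.0427 and 0.0338, and the adjusted p 0.574 and 0.484. Gene totals do not separate the activator from the repressor isoforms of Crem. Fhl5 (ACT), a coactivator of Crem in spermatids, was at 28.1, 6.12, 2.06 and 0 FPKM in the order used above, with the controls 4.59-fold apart. Kif17, a motor protein that controls where Fhl5 is located, was at 10.3, 8.91, 6.16 and 1.88 FPKM. Camk4, another gene of the list of partners, was at 1.10, 1.44, 1.85 and 0.383 FPKM. It was thus higher in Pld6 KO than in either control, and lower in Dnmt3L KO.

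The widely expressed relatives of Crem differed little. Creb1 was at 6.37, 7.98, 8.25 and 8.91 FPKM and Atf1 at 52.7, 63.9, 58.1 and 52.1. By contrast, all 6 spermatid genes known to depend on Crem (Prm1, Prm2, Tnp1, Tnp2, Odf1 and Smcp) were more than 2-fold below both controls in each mutant, with median changes of -8.48 and -7.74. The controls did not match each other for these genes. They were at 93.5 to 2372 FPKM in the Dnmt3L heterozygote and at 8.93 to 35.5 FPKM in Pld6 WT, so the medians against the mean of the controls rest mostly on the heterozygote. Against the lower control, Prm1 was 5.67-fold lower in Pld6 KO and 8.97-fold lower in Dnmt3L KO. The share of these transcripts that came from spermatids in the sorted cells was not tested.

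Spz1 (chromosome 13, 92574631 to 92576232), a basic helix-loop-helix zipper factor of the testis, gave the largest change among the members. It was at 88.4 FPKM in the Dnmt3L heterozygote and 19.2 in Pld6 WT, and at 0.0225 in Pld6 KO and at 0 in Dnmt3L KO. In fragments these levels were 8031, 1092, 1 and 0. Pld6 KO was 850-fold below Pld6 WT, with a 95% interval of 152 to 33612 that covers counting error only. Dnmt3L KO was at least 424-fold lower than Pld6 WT and at least 1955-fold lower than the heterozygote. The controls differed from each other by 4.61-fold. For Pld6 KO the adjusted p was 0.102 in edgeR and 2.69e-08 in DESeq2, and for Dnmt3L KO it was 0.0967 and 5.16e-08.

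**Figure D3:**
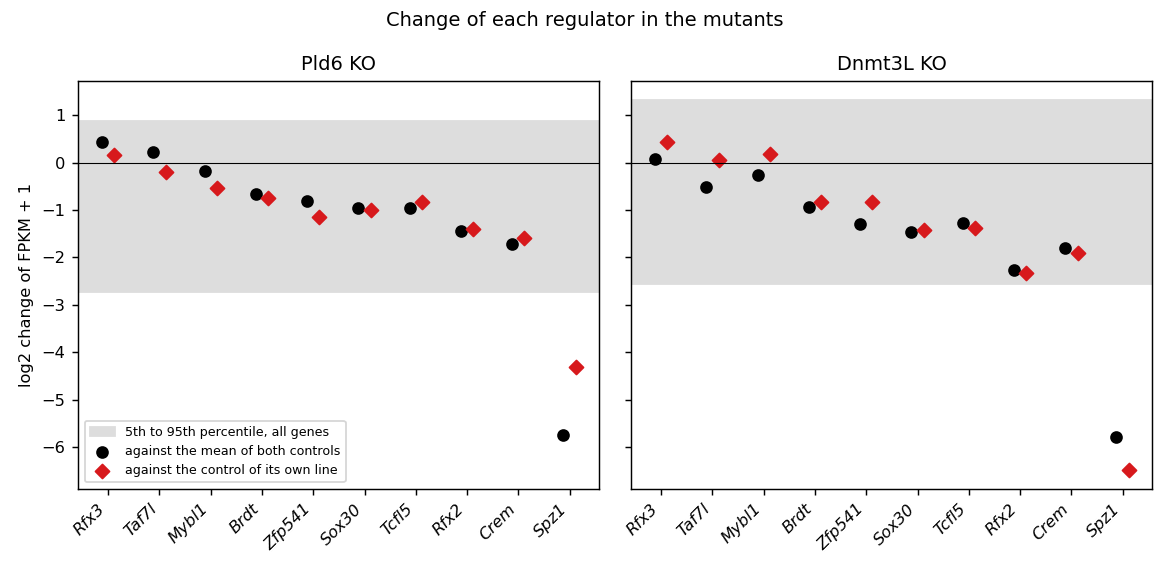
Change of each member in Pld6 KO and Dnmt3L KO as log2 of (FPKM + 1) in the mutant over that of the reference. Black dots are against the mean of the controls, red diamonds against the control of the mutant's own line. A grey band marks the range of most genes. Against the mean, changes run from -5.78 for Spz1 in Dnmt3L KO to 0.44 for Rfx3 in Pld6 KO. Against the own line, they run from -6.48 for Spz1 to 0.44 for Rfx3, both in Dnmt3L KO.

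No gene of the 18657 tested reached an adjusted p under 0.05 in edgeR in either mutant (0% and 0%), with 1 residual degree of freedom from the controls. At an unadjusted p under 0.05, 1383 genes were lower and 102 higher in Pld6 KO, and 1440 lower and 203 higher in Dnmt3L KO. As shares of the genes tested, the lower ones were 7.41% and 7.72%. Among the members these were Crem and Spz1 in Pld6 KO and Rfx2, Crem and Spz1 in Dnmt3L KO. DESeq2 called 972 and 936 of 20568 genes (4.73% and 4.55%), among them Spz1 in both mutants and Rfx2 in Dnmt3L KO, so whether these members passed depended on the tool.

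The controls are from different lines, so each mutant was also set against the control of its own line. More than 2-fold lower were 4 members in Pld6 KO (Rfx2, Crem, Spz1 and Zfp541), beside 9.95% of all genes, and 5 in Dnmt3L KO (Tcfl5, Rfx2, Sox30, Crem and Spz1), beside 12%. More than 2-fold higher was no member in either, beside 7.41% and 4.61% of all genes. The median changes were -0.91 and -1.11. Mybl1 went in opposite directions in the lines, with -0.53 in Pld6 KO and 0.19 in Dnmt3L KO.

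Each mutant's pairing with its line was also put into an edgeR fit, chosen after seeing the data, in which both mutants were pooled against the controls with the line as a block. In this fit 6 of 10 members were lower at an adjusted p under 0.05, beside 6.32% of the 18657 genes tested, and 0 were higher. Spz1 had an adjusted p of 9.64e-05, Crem of 0.00488 with a log2 difference of -1.96, and Rfx2 of 0.00637 with -2.10. Tcfl5 (-1.17, adjusted p = 0.0321), Zfp541 (-1.07, 0.0407) and Sox30 (-1.49, 0.047) also passed in edgeR. Brdt (-0.60, 0.227), Mybl1 (-0.22, 0.75), Rfx3 (0.38, 0.581) and Taf7l (-0.10, 0.899) did not. The fit gives 1 value for both mutants, so knockouts of different genes stand in as replicates of each other. Its 1 residual degree of freedom comes from how far the lines differ in that value. The p values of the fit therefore also draw on a spread that edgeR shares over all genes. In the edgeR fit of 3 groups, 0 members had an adjusted p under 0.05 in either mutant.

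Between the controls, Spz1 was the 1 member for which the Dnmt3L heterozygote exceeded Pld6 WT by more than 2-fold, beside 17.6% of all genes, and none was more than 2-fold lower, beside 6.1%. Taf7l (log2 difference -0.99), Zfp541 (-0.83), Mybl1 (-0.81) and Rfx3 (-0.66) were lower in the heterozygote than in Pld6 WT. Rfx2 (0.12), Sox30 (-0.09), Brdt (-0.19), Crem (0.23) and Tcfl5 (0.24) were close. The heterozygote had higher Sertoli marker levels and lower L/Z marker levels than Pld6 WT, and the part of this in the member values was not tested.

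Set against each other directly, Pld6 KO had the higher level of the mutants for all 10 members, beside 48.7% of all genes. The ratio ran from 1.07-fold for Mybl1 to 1.97-fold for Rfx2, and for Spz1 it rests on 1 fragment against 0. All 14 L/Z markers were also higher in Pld6 KO (median log2 difference 0.80), and all 10 Sertoli markers were lower (median -3.67). Scaled to those L/Z markers, the direction turned for 8 of the 10 members, and Pld6 KO was the higher mutant only for Rfx2 and Spz1, beside 13.4% of all genes, so the order of the mutants depends on the scaling. The part of the cell makeup in the difference was not tested.

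The L/Z markers themselves had median changes of -0.46 in Pld6 KO and, close to that of the members, -1.18 in Dnmt3L KO, where 2 of 14 were more than 2-fold below both controls. After rescaling to these markers, the members had medians of -0.64 (Pld6 KO) and -0.23 (Dnmt3L KO), but the median of all genes moved to 0.09 and 0.96, so the median of the members was still below that of all genes. In Dnmt3L KO, Mybl1 (0.86), Taf7l (0.69) and Brdt (0.11) were positive where they had been negative and Rfx3 was at 0.99, while Rfx2 (-1.39), Crem (-0.89), Sox30 (-0.62), Tcfl5 (-0.29) and Zfp541 (-0.16) were negative on either scale. In Pld6 KO, Mybl1 was at 0.11 where it had been at -0.18. After rescaling, Tcfl5 and Brdt lay between the controls in Dnmt3L KO.

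**Figure D4:**
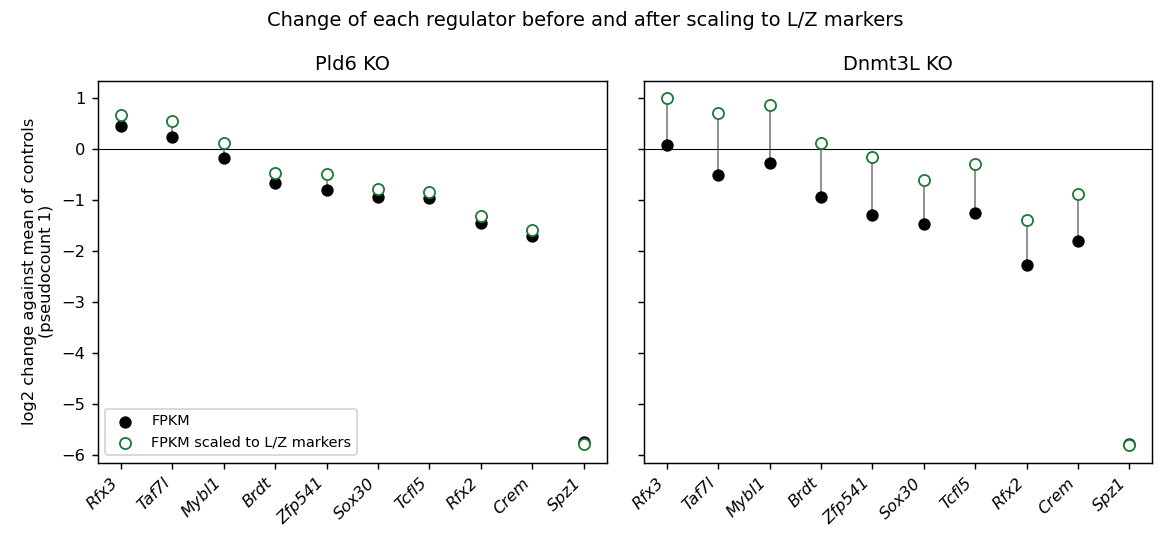
Change of each member in the mutants with FPKM as deposited and after each library was rescaled to its 14 L/Z markers, on the log2 scale. Rescaling moves every member except Spz1 up in Dnmt3L KO, with the median going from -1.28 to -0.23, while Spz1 stays far below the others.

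Groups of other genes give the members a frame. Of 14 paralogs, 2 (Rfx4 and Rfx8) were more than 2-fold lower than both controls in each mutant, with median changes of 0.18 and -0.01. Of 11 partners and testis transcription factors, 3 were lower in Pld6 KO (Fhl5, Gtf2a1l and Kctd19) and 4 in Dnmt3L KO (those and Kif17), with medians of -0.385 and -0.72. None of 11 measured regulators of spermatogonia and early meiosis, among them Stra8, Sohlh1, Dmrt1 and Prdm9, was more than 2-fold lower or higher than both controls in either mutant, and their medians were 0.14 and -0.18. Stra8, the retinoic acid induced gatekeeper of meiosis, was at 164 and 187 FPKM in the controls, 162 in Pld6 KO and 108 in Dnmt3L KO.

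Most marker genes of the stages that follow L/Z were lower than most members. All 12 pachytene markers in Pld6 KO and 11 of 12 in Dnmt3L KO were more than 2-fold below both controls, with median changes of -2.91 and -3.47. For 12 spermatid markers these numbers were 11 and 9, with medians of -2.92 and -2.78. At least as low as the least changed spermatid marker were 3 members in Pld6 KO (marker at -1.39) and 8 in Dnmt3L KO (marker at -0.47). The median pachytene marker was at 39.0 FPKM in the Dnmt3L heterozygote, 28.2 in Pld6 WT, 1.40 in Pld6 KO and at 1.26 in Dnmt3L KO. Every pachytene marker lay below the median of the members, and only Rfx2, Crem and Spz1 among the members were as low as the least changed of them, the chaperone Hspa2 (-1.33 and -1.60). The paper found these later stages missing from testes of both mutants that it does not describe as hybrids. Their part in the lower levels of the members was not tested.

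**Figure D5:**
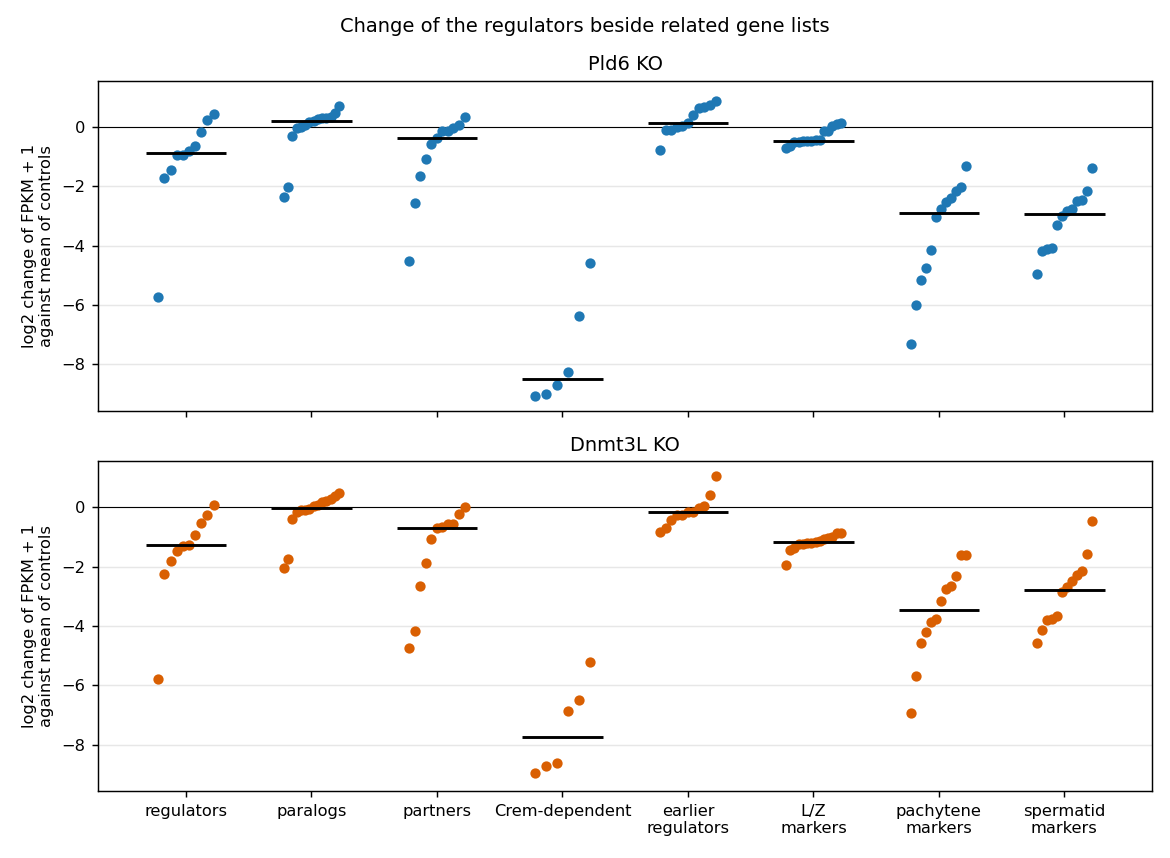
Change of each gene of the lists in Pld6 KO and Dnmt3L KO, as log2 of (FPKM + 1) over that of the mean of the controls, with a line at the median of each list. Earlier regulators sit around 0 (medians 0.14 and -0.18), the members lie below them (-0.88 and -1.28), and the spermatid genes known to depend on Crem are lowest (-8.48 and -7.74).

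Genes whose profile over the 4 libraries was most like the median profile of the members, by Euclidean distance between centred log2(FPKM + 1) values, were Bcas1 (0.0472), Chchd6 (0.0765), Ccdc62 (0.1002), Coil (0.110) and Cep128 (0.117). Chchd6, for example, was at 103 FPKM in the Dnmt3L heterozygote, 111 in Pld6 WT, 63.1 in Pld6 KO and at 43.9 in Dnmt3L KO. The distance rests on 4 libraries.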

How the data were processed

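The data were polyA(+) RNA-seq reads of 50 bp from 1 end, made from 4 libraries with a strand-specific kit. Per the labels and the study's methods, the authors aligned reads with TopHat2 and quantified genes with Cuffdiff on mm10, in exact versions not given in the sources used here. The deposited table gives estimated counts of fragments per gene (expected counts, 97.3% to 97.4% of them within 1e-06 of a whole number) and FPKM as normalized by the authors' tool, for 23980 genes. Of these values 31 were marked as failed, none of them of a member. Groups were taken from the genotype labels.

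Changes were computed on log2(FPKM + 1), which understates the change of low genes. A gene was called lower or higher when FPKM + 1 lay more than 2-fold beyond both controls, and the share called among 14416 genes with a mean FPKM of at least 1 is given as background. Fragments rounded to whole numbers were tested with edgeR 4.0.16 (quasi-likelihood, TMM, 3 groups, Benjamini-Hochberg) in R 4.3.3, with DESeq2 1.42.0 as an alternative. A fit of the pooled mutants against the controls with the line, read from the genotype labels, as a block was added after seeing the data. In the fits of 3 groups the only spread came from the 2 controls, which differ in line and genotype. As the labels name no separate animals, this may hold technical spread too. In the fit with the line as a block, the spread came from how far the lines differ in the mutant effect. The edgeR fit of 3 groups was run on simulated counts at the common dispersion of these data, 0.347, with an outcome not given here. Both edgeR fits were also checked on simulated counts with less spread. The checks with less spread do not show how the fits perform at the spread of these data. A count of 0 was taken to allow 3 fragments per library. Reads carried no molecular identifiers, so intervals and floors cover counting error only.

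Gene positions and promoter windows came from RefSeq (GRCm38.p6, the coordinates of mm10) by gene symbol. The members, gene lists and marker lists were chosen with earlier results of these data known. Named were all members, the 2 mutated genes, genes of the related lists (led by the largest changes) and the 5 genes with the nearest profile. Genes outside that rule (Hspa2, and Stra8, Sohlh1, Dmrt1 and Prdm9) were named after their values were seen. Gm4969 and Adgre1 of the lists were not analysed here. Alternatives tried were another pseudocount and threshold, other scalings including the L/Z markers, leaving out each control, no filter on low counts, and DESeq2.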

Additional observations from a re-analysis of the deposited data

Results flagged for a closer look

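Mybl1 and Taf7l had opposite directions in the lines. Against the control of its own line, Mybl1 was at -0.53 (log2) in Pld6 KO and at 0.19 in Dnmt3L KO. Taf7l was at -0.19 in Pld6 KO and at 0.06 in Dnmt3L KO. Each value compares 1 library with 1 library, and this difference was not tested.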

How the results depend on the processing

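The controls of the lines differed in Sertoli and spermatid marker levels, and each mutant had 1 library, which limits every value here. The labels carry no replicate numbers, but the genotypes pair each mutant with a control of its line. Added after seeing the data, an edgeR fit with that line as a block, which pools the mutants, called 1358 of 18657 genes (1179 lower and 179 higher), with 1 residual degree of freedom. With FPKM scaled to the L/Z markers, 1 member in Pld6 KO and 1 in Dnmt3L KO was more than 2-fold lower than both controls, beside 6.06% and 4.88% of all genes, and the medians were -0.64 and -0.23. With a 3-fold threshold 2 members (Crem and Spz1) were lower in Pld6 KO, beside 5.92%, and 3 (with Rfx2) in Dnmt3L KO, beside 6.08%. Without the Dnmt3L heterozygote 4 members were lower in Pld6 KO (Rfx2, Crem, Spz1 and Zfp541), beside 9.95%, and 7 in Dnmt3L KO (Brdt and Zfp541 added), beside 13.7%. Without Pld6 WT 4 were lower in Pld6 KO (Tcfl5 in place of Zfp541), beside 20.3%, and 5 in Dnmt3L KO, beside 12%. The medians then ranged from -0.91 to -0.73 and from -1.32 to -1.11. Over all genes, edgeR called 0 in each mutant, also with DESeq2 size factors, but 437 (Pld6 KO) and 429 (Dnmt3L KO) when the filter on low counts was dropped, and DESeq2 called 972 and 936, and the cause was not tested. Spz1 was among the genes called in both mutants by DESeq2 and by edgeR without that filter, and Rfx2 in Dnmt3L KO by DESeq2. Of 120 alternative values of single members, 87 moved by less than the standard deviation of the changes against each single control, and 33 by more. That yardstick comes from the same values as the settings that leave out a control, so small moves in those settings show little. Reversal was counted for called values only, with 0 found. Among values not called, those of Mybl1, Taf7l, Brdt and Rfx3 changed sign in some settings. The edgeR fit of 3 groups without a control leaves no residual degree of freedom and was not run.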
